A study of Mus musculus with 16 samples.

Results

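The genes described here are 6 chemokines (Ccl2, Ccl7, Cxcl1, Cxcl5, Cxcl12 and Cx3cl1) and 4 genes of the interleukin-6 pathway (Il6, Il6ra, Il6st and Socs3), 10 of the 22911 genes that could be matched to a probe. They were chosen by name, with every array probe whose identifier maps to their symbols, which gave 14 probes. Of these, 12 probes of 9 genes had a signal well above background throughout at least 1 group of 4 arrays and were tested. The only probe of Cxcl5 and the second probe of Il6ra were not. Il6, Il6st and Cxcl12 had 2 tested probes each.

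Chemokines are small secreted proteins that guide the movement of leukocytes and other cells through G protein-coupled receptors. CCL2 and CCL7 attract monocytes, CXCL1 and CXCL5 attract neutrophils, CXCL12 is a homeostatic chemokine that podocytes are known to secrete, and CX3CL1 is held on the cell membrane until it is shed. Interleukin-6 binds its receptor IL6RA, and this complex joins the shared subunit gp130 (Il6st), which activates JAK kinases and the transcription factor STAT3. STAT3 induces Socs3, whose product binds gp130 and limits the signal. NF-kB drives transcription of Il6, Ccl2 and Cxcl1.

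Primary podocytes, the epithelial cells of the glomerular filter, were grown out of bead-isolated glomeruli of male Jcl:ICR mice, and their RNA was hybridised to 16 one-colour arrays. In Tsc2Δpodocyte mice, Tsc2, a brake on the kinase complex mTORC1, was deleted by a Cre that is active in podocytes and not in other glomerular cells, while Tsc2flox/flox mice carried the floxed alleles without Cre. Each genotype gave 4 samples from untreated mice of 4 weeks and 4 from mice of 5 weeks, taken 1 week after the start of rapamycin, an mTORC1 inhibitor injected into the mice, not added to the cultures. Whether each sample came from its own mouse is not stated, and the spread on which the p-values rest may thus be technical. All untreated arrays lay on 1 slide and all treated arrays on another, so treatment, age and slide cannot be told apart. On each slide the genotypes filled separate rows, so genotype and row cannot be told apart.

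The values are log2 signals relative to the 75th percentile of each array, called the normalized log2 signal, so a value of 0 is a signal at that percentile. They can be compared between arrays for 1 probe but not between probes. A probe was called where limma gave an adjusted p (Benjamini-Hochberg) under 0.05 and a fold of at least 1.5, and a gene was counted by its brightest probe. Tsc2 itself was lower on every Tsc2Δpodocyte array than on every Tsc2flox/flox array of the same treatment. On its probe A_51_P345714 the Tsc2Δpodocyte samples lay between 1.93 and 2.31 and the Tsc2flox/flox samples between 2.95 and 3.71 without treatment, and between 2.05 and 2.73 against 2.83 and 3.65 with rapamycin.

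RNA of marker genes of other cell types was measured in the cultures, and 2 arrays stood apart in endothelial markers. By the paper's count, nearly all explant cells stained for the podocyte marker WT1. Markers of podocytes were well above background in all groups, on all 4 arrays for at least 11 of 12 listed genes. Over 12 endothelial markers, the mean normalized log2 signal was 0.58 in Tsc2Δpodocyte replicate 3 but between -1.82 and -1.16 in the other Tsc2Δpodocyte samples. It was -2.74 in Tsc2flox/flox replicate 3 but between -0.48 and 0.65 in the other Tsc2flox/flox samples. With rapamycin it lay between -3.11 and -2.15 in Tsc2Δpodocyte and between -3.20 and -2.11 in Tsc2flox/flox podocytes. Results that rest on the untreated samples numbered 3 are therefore also given without both. In RNA of whole cultures, fewer cells of a type and less RNA per cell cannot be told apart.

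The sequences before the starts of Il6, Cxcl1, Socs3 and Il6ra are shown here because the first 3 carry motifs of the factors named above and Il6ra is the pathway gene with the clearest difference between genotypes. RefSeq promoter entries (GRCm38.p6) from 250 bases before to 50 bases after the start were at hand for 7 of the 10 genes, among them also Cxcl12, Cx3cl1 and Il6st. The motifs searched on both strands were the NF-kB consensus, the STAT palindrome TTCNNNGAA, the C/EBP motif TTGCNNAA and the AP-1 motif TGANTCA. No match shares letters with a match of another motif. Capitals mark the matches in the 250 bases before each start, 5′ to 3′.
Il6, chr5:30012864-30013113, plus strand: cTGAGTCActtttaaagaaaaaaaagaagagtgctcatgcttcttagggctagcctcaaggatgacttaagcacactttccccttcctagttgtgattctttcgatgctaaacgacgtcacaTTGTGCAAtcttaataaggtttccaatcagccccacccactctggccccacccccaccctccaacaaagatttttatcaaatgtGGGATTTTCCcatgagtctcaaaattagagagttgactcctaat
Cxcl1, chr5:90890995-90891244, plus strand: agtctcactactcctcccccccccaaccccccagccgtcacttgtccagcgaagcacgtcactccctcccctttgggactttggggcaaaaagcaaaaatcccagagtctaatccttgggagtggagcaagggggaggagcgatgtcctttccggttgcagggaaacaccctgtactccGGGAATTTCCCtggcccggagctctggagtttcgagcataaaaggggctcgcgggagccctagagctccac
Socs3, chr11:117969367-117969616, minus strand: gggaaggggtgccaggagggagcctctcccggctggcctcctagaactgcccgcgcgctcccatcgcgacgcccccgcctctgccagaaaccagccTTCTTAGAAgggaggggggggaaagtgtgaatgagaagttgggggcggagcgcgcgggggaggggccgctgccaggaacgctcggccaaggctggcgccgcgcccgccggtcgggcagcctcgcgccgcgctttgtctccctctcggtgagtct
Il6ra, chr3:89913197-89913446, minus strand: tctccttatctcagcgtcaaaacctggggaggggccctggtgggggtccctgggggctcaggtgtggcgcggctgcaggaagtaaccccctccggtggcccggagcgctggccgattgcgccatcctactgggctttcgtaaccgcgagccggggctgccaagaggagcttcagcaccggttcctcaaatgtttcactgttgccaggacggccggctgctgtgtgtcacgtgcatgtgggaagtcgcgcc

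Il6 held an AP-1 motif at its far end, a C/EBP motif from 128 to 121 bases before the start and an NF-kB match from 44 to 35 bases before it. Cxcl1 held a pair of overlapping NF-kB matches, from 71 to 62 and from 70 to 61 bases before the start. Socs3 held the STAT palindrome from 154 to 146 bases before the start. The windows of Il6ra, Cxcl12, Cx3cl1 and Il6st held no match. Of 32851 promoter entries of the same length, 8.46% held the NF-kB consensus, 8.30% the STAT palindrome, 10.8% the C/EBP motif and 7.81% the AP-1 motif. These matches are letters in a window and say nothing of binding in podocytes.

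**Figure D1:**
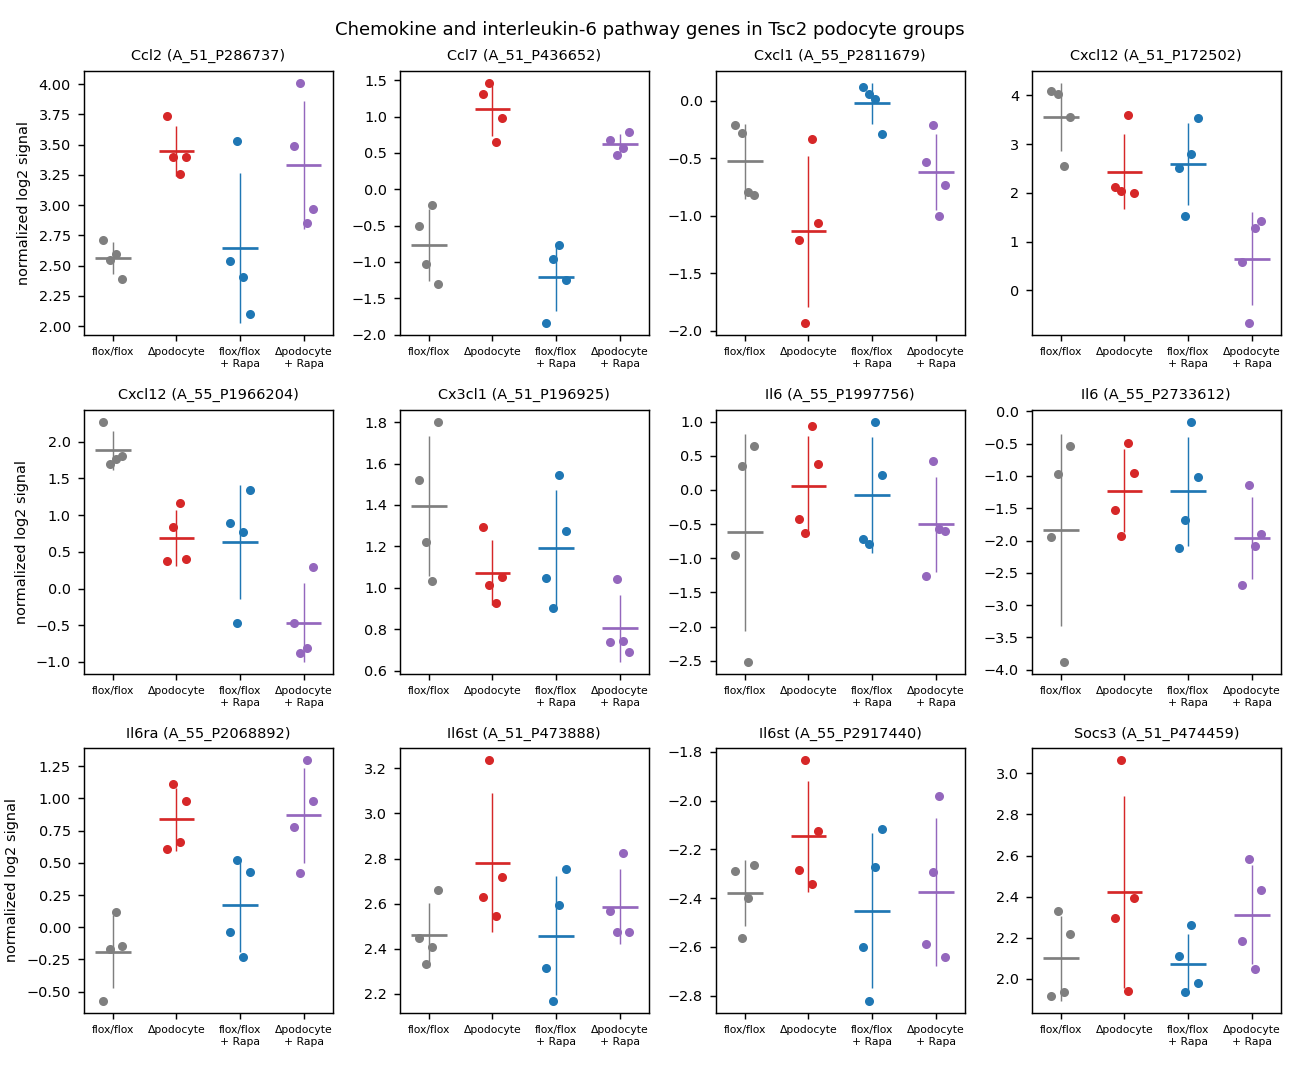
Normalized log2 signal (vertical axes, each with its own range) of the 12 tested probes, by group of 4 arrays. Points are arrays in the order of their replicate number, horizontal lines are group means and vertical lines are 1 SD to each side; the Ccl7 values of the Tsc2Δpodocyte groups lie between 0.47 and 1.47, above all values of the Tsc2flox/flox groups.

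Between untreated genotypes, 3 of the 9 tested genes were called, all higher in Tsc2Δpodocyte podocytes: the monocyte chemokines Ccl2 and Ccl7 and the receptor Il6ra. Of all 14094 genes tested, 10.0% were called in this comparison and 6.18% were called higher. The dimmer probe of Cxcl12, which this count leaves out, was called lower (log2 fold change -1.19, adjusted p = 0.0287, limma). With rapamycin 2 of 9 were called, Ccl7 higher and Cxcl12 lower, against 5.58% of all genes (2.97% higher and 2.61% lower). The median log2 fold change of the 9 genes was 0.32 without and 0.13 with rapamycin, beside medians of -0.01 and 0.01 over all genes. No direction was common to the 9 genes.

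Ccl7, whose product attracts monocytes through CCR2 and other receptors, showed the smallest p of the 9 genes tested. Its normalized log2 signal was 1.31, 1.47, 0.65 and 0.98 in Tsc2Δpodocyte podocytes (1.10 ± 0.36, SD, n = 4) and -0.50, -1.03, -0.22 and -1.31 in Tsc2flox/flox podocytes (-0.76 ± 0.49, SD, n = 4). Every Tsc2Δpodocyte sample lay above every Tsc2flox/flox sample. The difference was 3.65-fold, a log2 fold change of 1.87 with a standard error (SE) of 0.26 and an adjusted p of 0.000427 in limma. After rapamycin the Tsc2Δpodocyte samples were at 0.68, 0.47, 0.57 and 0.79 (0.63 ± 0.14) and the Tsc2flox/flox samples at -1.84, -0.97, -0.77 and -1.24 (-1.20 ± 0.47), again without overlap. The fold was 3.56 and the log2 fold change 1.83 (SE 0.26, adjusted p = 0.00163). The genotype difference thus had nearly the same size with and without rapamycin, and the change of this difference was -0.03 (95% confidence interval -0.82 to 0.75).

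Ccl2, the main monocyte chemoattractant, was also higher in untreated Tsc2Δpodocyte podocytes, by a smaller factor. The Tsc2Δpodocyte samples were at 3.74, 3.40, 3.26 and 3.40 (3.45 ± 0.21, SD, n = 4) and the Tsc2flox/flox samples at 2.71, 2.55, 2.59 and 2.39 (2.56 ± 0.13, SD, n = 4). These ranges were more than 0.5 apart. The difference was 1.85-fold, at 0.89 on the log2 scale (SE 0.28, adjusted p = 0.0418, limma). This call was close to the threshold: without any single array of the 8, the log2 fold change was 0.79 to 0.95 with an adjusted p of 0.0530 to 0.0995, and without both samples numbered 3 it was 0.96 (adjusted p = 0.0814). It also missed the threshold after quantile normalization (adjusted p = 0.0590) and with all probes kept (adjusted p = 0.0957).

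With rapamycin, Ccl2 was at 3.49, 4.01, 2.86 and 2.97 in Tsc2Δpodocyte and at 2.54, 3.53, 2.41 and 2.10 in Tsc2flox/flox podocytes. The values overlapped, since Tsc2flox/flox replicate 2 stood at the level of the Tsc2Δpodocyte samples. Its difference of 0.69 on the log2 scale (SE 0.28) gave an adjusted p of 0.134, and without that sample it was 0.98 (adjusted p = 0.0196). Replicate 2 was the sample with the highest macrophage marker mean of its group, and the plot of Ccl2 against these markers shows it. It also had the highest podocyte and parietal epithelial marker means of its group, at 2.42 and 3.43. For the deviations from group means, Pearson's r of Ccl2 was 0.455 with the macrophage and 0.700 with the parietal markers. With the other marker lists it lay between -0.572 and -0.038. The part of any of these cells in this value was not tested.

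Macrophages make both chemokines, and their markers varied between the same arrays. Of 19 macrophage and leukocyte markers, 17 were tested. Their mean normalized log2 signal was -0.47, -0.84, -0.68 and 0.09 in untreated Tsc2Δpodocyte podocytes and -0.45, -1.71, -1.13 and -1.38 in untreated Tsc2flox/flox podocytes. The summed linear signal of the list, in units of the array's 75th percentile, was 16.7 to 26.3 against 11.4 to 22.3, and 16.5 to 24.6 against 15.2 to 24.7 with rapamycin. Only Cd79a, a B cell marker, was well above background on no array of any group. In this list 2 genes rose without rapamycin and 0 with it, and 16 and 6 of the 17 were fitted above 0. The median log2 fold changes of the list were 0.65 and -0.08. Over the 16 arrays, Pearson's r of the list mean with Ccl7 was 0.329, and 0.416 for the deviations from group means. With Ccl2 these were 0.5 and 0.455. With the other marker lists r of Ccl7 lay between -0.678 (parietal epithelial) and 0.656 (mesangial and smooth muscle). For the deviations it lay between -0.417 and 0.238. Among single untreated arrays, Tsc2flox/flox replicate 1 and Tsc2Δpodocyte replicate 1 had marker means of -0.45 and -0.47, with Ccl7 at -0.50 and 1.31. With rapamycin, Tsc2flox/flox replicate 2 had the highest macrophage marker mean of the 8 treated samples, at -0.09, with Ccl7 at -0.97. All treated Tsc2flox/flox samples, with Ccl7 at -1.84 to -0.77, lay below every treated Tsc2Δpodocyte sample. The part of macrophage RNA in the differences of Ccl2 and Ccl7 was not tested.

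**Figure D2:**
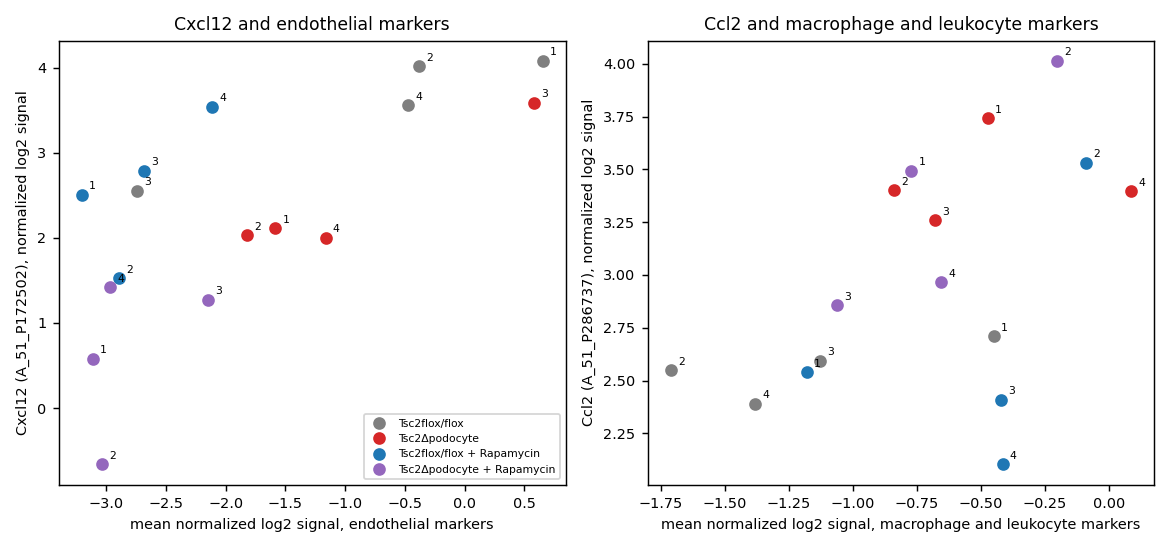
Left, Cxcl12 (vertical axis, normalized log2 signal) against the mean of 12 endothelial markers (horizontal axis, normalized log2 signal) on each array; right, Ccl2 against the mean of 17 macrophage and leukocyte markers. Each point is an array, coloured by group and numbered by replicate; Tsc2Δpodocyte replicate 3 and Tsc2flox/flox replicate 3 stand apart from the rest of their groups in endothelial markers, at 0.58 and -2.74.

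The gene Ccl12, a CCR2 ligand of the mouse, lies with Ccl2 and Ccl7 on chromosome 11, with Ccl11 between Ccl7 and Ccl12. It was well above background on all 4 untreated Tsc2Δpodocyte arrays, at -2.02, -2.65, -2.68 and -1.99, and on 0 of 4 Tsc2flox/flox arrays. It was at least 5.93-fold higher (adjusted p = 0.000528, limma), with each Tsc2flox/flox array set to its own lowest well-measured probe signal, or to the signal of this probe if that was the larger. Ccl12 entered the tests through the Tsc2Δpodocyte groups alone, and this p compares them with values at background. With rapamycin all 4 Tsc2Δpodocyte samples, at -3.72, -2.98, -4.02 and -3.48, and 1 of 4 Tsc2flox/flox samples, replicate 2 at -4.08, were above background. Ccl11, Ccl8 and Ccl1 of the same cluster were not tested.

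Cxcl12 was lower in Tsc2Δpodocyte podocytes, on different probes in different comparisons. On the probe A_55_P1966204 the untreated Tsc2Δpodocyte samples were at 0.37, 0.84, 1.17 and 0.40 (0.69 ± 0.38, SD, n = 4) and the Tsc2flox/flox samples at 2.28, 1.69, 1.77 and 1.80 (1.89 ± 0.26, SD, n = 4). All Tsc2Δpodocyte values lay below all Tsc2flox/flox values, and the log2 fold change was -1.19 (SE 0.35, adjusted p = 0.0287, limma), 2.28-fold lower. Without any 1 of 5 of the 8 arrays (Tsc2Δpodocyte replicates 1, 2 and 4, Tsc2flox/flox replicates 1 and 4) the adjusted p was between 0.0518 and 0.0749, at log2 fold changes of -1.24 to -1.06. With all probes kept it was 0.0683.

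The brighter probe, A_51_P172502, which was matched to another RefSeq transcript of the gene, was at 2.12, 2.03, 3.59 and 2.00 in untreated Tsc2Δpodocyte and at 4.08, 4.02, 2.56 and 3.56 in untreated Tsc2flox/flox podocytes. Here the ranges overlapped through the samples numbered 3, the Tsc2Δpodocyte one being high and the Tsc2flox/flox one low. The fitted difference of -1.12 (SE 0.53, log2 scale) gave an adjusted p of 0.161. Without both samples numbered 3 it was -1.84 (adjusted p = 0.0358).

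With rapamycin the brighter probe was at 0.58, -0.66, 1.27 and 1.42 in Tsc2Δpodocyte and at 2.51, 1.52, 2.79 and 3.54 in Tsc2flox/flox podocytes. The ranges were next to each other without overlap. The difference was 3.83-fold, a log2 fold change of -1.94 (SE 0.53, adjusted p = 0.0345). This call was lost within the 8 treated arrays alone (adjusted p = 0.0747) and with all probes kept (adjusted p = 0.0834). It was also lost without Tsc2Δpodocyte replicates 1 or 2 or Tsc2flox/flox replicates 1, 3 or 4, with log2 fold changes of -1.96 to -1.50 and adjusted p between 0.0601 and 0.100. The other probe was at -0.46, -0.88, -0.81 and 0.29 against 0.89, -0.48, 0.77 and 1.34, at -1.09 on the log2 scale (SE 0.35, adjusted p = 0.0581).

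Endothelial cells also make Cxcl12, and their markers varied between the same arrays. In untreated samples the brighter probe was high where the endothelial mean was high, in Tsc2Δpodocyte replicate 3 (3.59 with 0.58) and in Tsc2flox/flox replicates 1 and 2 (4.08 with 0.65, and 4.02 with -0.38). It was at 3.56 in Tsc2flox/flox replicate 4, with an endothelial mean of -0.48, and at 2.56 in replicate 3, where that mean was -2.74. The dimmer probe was at 1.77 in Tsc2flox/flox replicate 3, within the range of its group, 1.69 to 2.28. Over the 16 arrays, Pearson's r with the endothelial mean was 0.708 for the brighter and 0.616 for the dimmer probe. For the deviations from group means it was 0.716 and 0.3. With rapamycin the endothelial means of the genotypes overlapped. The Cxcl12 values of the brighter probe did not overlap, while those of the dimmer probe did. The summed linear signal of the 12 endothelial markers was 12 to 96.9 in untreated Tsc2Δpodocyte and 7.22 to 118 in untreated Tsc2flox/flox samples, and 5.03 to 9.52 and 5.00 to 12.7 with rapamycin. Vwf was above background on no untreated Tsc2flox/flox array and Erg on no treated Tsc2flox/flox array. No gene of this list rose or fell between genotypes. The part of endothelial RNA in the Cxcl12 values was not tested.

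CXCL12 signals through CXCR4 and is removed by the scavenger receptor ACKR3. Ackr3 was lower in Tsc2Δpodocyte podocytes in both settings: without rapamycin at 1.15, 2.50, 1.46 and 0.70 against 2.82, 3.17, 2.63 and 2.86 (log2 fold change -1.42, SE 0.37, adjusted p = 0.0185), and with it by -1.64 on the log2 scale (adjusted p = 0.0153). Its values did not overlap between genotypes with or without rapamycin.

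Cxcl1, the neutrophil chemokine, was not called in either genotype comparison. It was at -1.21, -1.93, -0.33 and -1.07 in untreated Tsc2Δpodocyte and at -0.21, -0.28, -0.80 and -0.82 in untreated Tsc2flox/flox samples. The Tsc2Δpodocyte replicate 3 was within the Tsc2flox/flox range and the other 3 lay below it. Cxcl1 had a log2 fold change of -0.61 (95% confidence interval -1.19 to -0.02, adjusted p = 0.137). Without that sample it was -0.88 (adjusted p = 0.0237), and without both samples numbered 3 it was -0.97 (adjusted p = 0.0250). With rapamycin it was -0.60 (-1.18 to -0.01, adjusted p = 0.181), with values of -0.53, -0.21, -1.0 and -0.73 against 0.12, 0.06, 0.01 and -0.29.

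Cx3cl1, the membrane-held chemokine of monocytes and T cells, was not called either. Its untreated values were 1.30, 1.02, 0.93 and 1.05 in Tsc2Δpodocyte and 1.52, 1.22, 1.03 and 1.80 in Tsc2flox/flox samples, which overlap. Cx3cl1 had a log2 fold change of -0.32 (95% confidence interval -0.68 to 0.04, adjusted p = 0.201) and with rapamycin -0.39 (-0.75 to -0.03, adjusted p = 0.160). Cx3cr1, its receptor, was at 1.02 (adjusted p = 0.204) and 0.21 (adjusted p = 0.851).

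Cxcl5 was close to the limit of the array. Its probe A_55_P1990032 was well above background in Tsc2Δpodocyte replicate 3 and in rapamycin-treated Tsc2Δpodocyte replicate 2, and on no Tsc2flox/flox array. These 2 arrays had background-subtracted signals of 44.4 and 18.6, and the highest signal of any Tsc2flox/flox array was 13.4. No comparison was made for it.

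**Figure D3:**
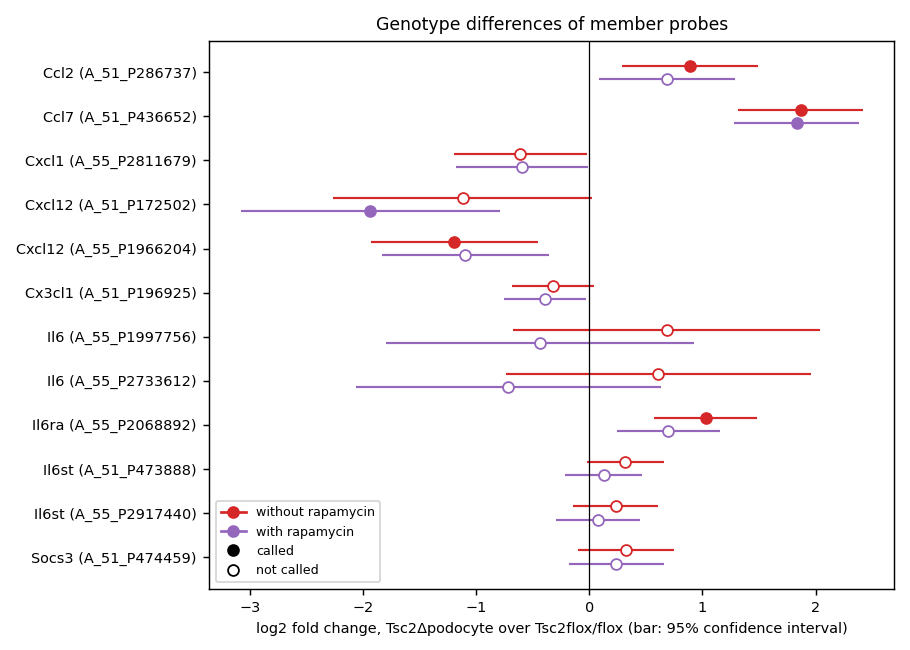
Log2 fold change of Tsc2Δpodocyte over Tsc2flox/flox podocytes (horizontal axis) for the 12 tested probes, without (red) and with (purple) rapamycin. Bars are 95% confidence intervals from limma over 16 arrays and filled points are called; only Ccl7 was called in both comparisons, at 1.87 and 1.83.

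Il6 varied widely within groups and was not called. On the brighter probe, A_55_P1997756, the untreated Tsc2Δpodocyte samples were at -0.42, -0.63, 0.93 and 0.38 and the Tsc2flox/flox samples at -0.96, 0.36, -2.51 and 0.64. Tsc2flox/flox replicate 3 was the lowest of all 16 arrays on both probes, and the Tsc2flox/flox group spanned 8.88-fold. The spread within groups was larger than that of 98.3% of all tested probes. The log2 fold change was 0.68 (95% confidence interval -0.68 to 2.04, adjusted p = 0.483), and without both samples numbered 3 it was -0.24 (adjusted p = 0.802), so that its direction rested on them. Without Tsc2flox/flox replicate 3 alone it was 0.05.

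With rapamycin Il6 was at -1.26, 0.42, -0.57 and -0.60 in Tsc2Δpodocyte and at -0.71, -0.80, 1.00 and 0.22 in Tsc2flox/flox podocytes, again overlapping. The log2 fold change was -0.43 (-1.79 to 0.93, adjusted p = 0.720). The second probe, A_55_P2733612, gave 0.61 (adjusted p = 0.530) and -0.72 (adjusted p = 0.515). The interval on the brighter probe runs from 0.625-fold to 4.12-fold without rapamycin.

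Il6ra, the ligand-binding receptor, was the 1 gene of the 4 in the interleukin-6 pathway that was called. Its probe A_55_P2068892 was at 0.60, 1.11, 0.66 and 0.98 in untreated Tsc2Δpodocyte podocytes (0.84 ± 0.24, SD, n = 4) and at -0.57, -0.17, 0.12 and -0.14 in untreated Tsc2flox/flox podocytes (-0.19 ± 0.28, SD, n = 4). The groups did not overlap, and the difference was 2.04-fold, at 1.03 on the log2 scale (SE 0.21, adjusted p = 0.00516). It was called under every alternative tried and without each array in turn.

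With rapamycin Il6ra was at 0.78, 0.42, 1.30 and 0.98 in Tsc2Δpodocyte and at -0.04, 0.52, -0.23 and 0.43 in Tsc2flox/flox podocytes. The groups overlapped through Tsc2Δpodocyte replicate 2, at 0.42, which lay below the 2 highest Tsc2flox/flox values, 0.52 and 0.43. At 0.70 on the log2 scale (SE 0.21), the difference just missed the threshold, with an adjusted p of 0.0514. It passed without Tsc2Δpodocyte replicate 2 (0.85, adjusted p = 0.0238) or without Tsc2flox/flox replicate 2 (0.82, adjusted p = 0.0369). It also passed after quantile normalization, with the deposited values, with a stricter filter and with a trended prior (adjusted p between 0.0428 and 0.0492). Most alternatives missed the threshold. The adjusted p was above 0.05 in 5 of 9 other settings and in 6 of 8 fits with 1 array left out. The difference between the genotype effects was -0.33 (95% confidence interval -0.97 to 0.32, adjusted p = 0.839). The second probe of Il6ra was above background on 3 of the 16 arrays and was not compared.

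The Il6ra values varied with podocyte markers within groups. The mean normalized log2 signal of 12 podocyte markers was 1.81, 2.55, 1.44 and 1.51 in untreated Tsc2Δpodocyte and 1.18, 1.92, 1.93 and 1.66 in untreated Tsc2flox/flox podocytes, and 2.18, 1.75, 2.72 and 2.11 against 1.81, 2.42, 1.53 and 2.08 with rapamycin. These means overlapped between genotypes in both settings, and the Tsc2Δpodocyte sample with the highest mean of its group, replicate 2 without and replicate 3 with rapamycin, also had the highest Il6ra value of its group. Over the 16 arrays, which share groups and slides, Pearson's r of Il6ra with this mean was 0.643, and 0.825 for the deviations from group means. With the mean of mesangial and smooth muscle markers it was 0.694, and 0.244 for the deviations. With the other marker lists it lay between -0.546 and 0.26, and between -0.494 and -0.209 for the deviations. The summed linear signal of the podocyte list was 112 to 252 against 83.7 to 132 without rapamycin and reached 258 against 144 with it. In each comparison 1 gene of the podocyte list was called higher and 0 lower, Clic5 without and Podxl with rapamycin. The part of podocyte RNA in the Il6ra difference was not tested.

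Il6st, the signal-transducing gp130 shared by the interleukin-6 family, was not called on either probe. Its brighter probe, A_51_P473888, was at 2.63, 3.24, 2.55 and 2.72 in untreated Tsc2Δpodocyte and at 2.45, 2.33, 2.41 and 2.66 in untreated Tsc2flox/flox podocytes. The values overlapped, with the Tsc2Δpodocyte samples on average 0.32 higher (95% confidence interval -0.02 to 0.66, adjusted p = 0.177). With rapamycin the difference was 0.13 (-0.21 to 0.47, adjusted p = 0.667). The second probe gave 0.23 (adjusted p = 0.377) and 0.08 (adjusted p = 0.828).

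Socs3, the feedback inhibitor, was at 2.29, 3.06, 1.94 and 2.39 in untreated Tsc2Δpodocyte and at 1.91, 2.33, 1.94 and 2.22 in untreated Tsc2flox/flox podocytes. These overlapped, Tsc2Δpodocyte replicate 2 being the highest of all 16 arrays. The log2 fold change was 0.32 (95% confidence interval -0.10 to 0.74, adjusted p = 0.273). With rapamycin the samples were at 2.18, 2.58, 2.05 and 2.43 against 2.11, 1.94, 2.26 and 1.98, a difference of 0.24 (-0.18 to 0.66, adjusted p = 0.483).

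Over the probes, 4 of 12 had no overlap between the untreated genotypes (Ccl2, Ccl7, Il6ra and the dimmer Cxcl12 probe), where 24.6% of all 27579 tested probes had none. With rapamycin 2 of 12 had none (Ccl7 and the brighter Cxcl12 probe), where the share of all tested probes was 17.2%. For each probe without overlap the 2-sided exact permutation test gave p = 0.0286, the smallest that 4 arrays against 4 allow.

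No member gene was called by limma between treated and untreated podocytes of either genotype, or for the interaction of genotype and rapamycin. In Tsc2Δpodocyte podocytes 1.57% of all genes were called between treatments, in Tsc2flox/flox podocytes 0.114%, and for the interaction 0.0%. At an unadjusted p under 0.05, 1 of 9 member genes (Cxcl12) passed between treatments in Tsc2Δpodocyte podocytes, 0 in Tsc2flox/flox podocytes and 0 for the interaction, beside 24.2%, 15.9% and 7.39% of all genes.

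The member with the largest fitted difference between treatments was Cxcl12. In Tsc2Δpodocyte podocytes it was lower with rapamycin by -1.78 on the log2 scale on the brighter probe (SE 0.53, adjusted p = 0.0762) and by -1.16 on the other (adjusted p = 0.0751). In Tsc2flox/flox podocytes it was at -0.96 (adjusted p = 0.392) and -1.25 (adjusted p = 0.119). The median log2 fold change of the endothelial markers in these comparisons was -2.14 and -2.27, with 0 of 12 called, and its part in the Cxcl12 values was not tested. Ccl7 was at -0.47 and -0.44 (adjusted p = 0.296 and 0.417), and Ccl2 at -0.12 and 0.08 (adjusted p = 0.844 and 0.909). Slide, age and treatment cannot be told apart in these values.

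The other genes of both pathways came from lists written with earlier results of these data known, each counted by its brightest tested probe. The counts of each list stand beside 10.0% of all genes called between genotypes without rapamycin and 5.58% with it. Of 29 other chemokines, 16 were tested. Without rapamycin 2 rose, Ccl12 and Ccl4, 0 fell and 14 were not called, and with rapamycin 1 rose, Ccl12. Ccl4, which attracts monocytes and T cells, was at -2.40, -2.41, -3.06 and -2.20 in untreated Tsc2Δpodocyte and at -2.63, -4.21, -3.69 and -5.13 in untreated Tsc2flox/flox samples, of which 3 were above background. Tsc2flox/flox replicate 1 lay within the Tsc2Δpodocyte range (log2 fold change 1.40, SE 0.43, adjusted p = 0.0374). With rapamycin Ccl4 was at 0.26 (adjusted p = 0.75). The median of the 16 genes was 0.43 without and 0.19 with rapamycin.

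Most chemokine receptors are genes of leukocytes, and 5 of 23 were tested. Among them Ackr3 fell in both comparisons, and Cx3cr1 and Cxcr6 were not called.

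Among the other ligands and receptors of the interleukin-6 family, the cytokine gene Clcf1 fell with and without rapamycin. Its log2 fold change was -0.89 in both (adjusted p = 0.0121 and 0.0194). Il11ra1, at 0.36 (adjusted p = 0.0246), and Il27, at 0.42 (adjusted p = 0.0437), stayed under the 1.5-fold threshold.

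In the list of JAK-STAT3 signalling and its inhibitors, 1 of 18 genes rose and 2 fell without rapamycin, and 0 rose and 2 fell with it. Socs2, an inhibitor of growth hormone signalling and a target of STAT5, was at -0.05, -0.65, 0.28 and -0.20 in untreated Tsc2Δpodocyte against 2.04, 1.93, 1.65 and 1.64 in untreated Tsc2flox/flox podocytes, far apart. The log2 fold change was -1.97 (SE 0.18, adjusted p = 4.03e-05), and with rapamycin -1.73 (adjusted p = 0.000380). Stat5a, a transcription factor of cytokine signalling, was at -0.68 (adjusted p = 0.0268) without rapamycin and at -0.39 (adjusted p = 0.213) with it.

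Of 20 genes known as STAT3 targets in some cell type, 15 were tested. Without rapamycin 6 rose (Saa3, Hp, Il4ra, Bcl3, Vegfa and Cebpb), 2 fell (Pim3 and Myc) and 7 were not called, and with it 4 rose (Saa3, Il4ra, Bcl3 and Cebpb) and 1 fell (Pim3). Their median log2 fold change was 0.18 and 0.19. Saa3, a serum amyloid of the acute phase, was at 0.21, -0.66, 0.06 and 0.27 in untreated Tsc2Δpodocyte podocytes, while 1 of 4 Tsc2flox/flox arrays was above background, at -3.83. With rapamycin 0 of 4 Tsc2flox/flox arrays were, and the Tsc2Δpodocyte samples at 0.11, 1.24, -1.69 and 1.53 were at least 43.1-fold higher (adjusted p = 0.000689). Saa3, too, entered the tests through the Tsc2Δpodocyte groups alone, and this p compares them with values at background. Bcl3, an IkB-family cofactor of NF-kB, was at 1.35 and 1.06 (adjusted p = 0.000531 and 0.00647). The interleukin-4 receptor Il4ra was at 1.21 and 0.92 (adjusted p = 0.000573 and 0.00760), and Cebpb, a factor of the acute-phase response, at 0.83 and 0.62 (adjusted p = 0.000570 and 0.00794). Many of these genes have other inducers, and the part of STAT3 in their differences was not tested.

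Of 24 factors, feedback genes and targets of NF-kB, 21 were tested, and 1 rose and 1 fell in each comparison. Tnfaip3 (A20), a ubiquitin-editing inhibitor of NF-kB, was at 1.86, 1.02, 1.97 and 1.77 in untreated Tsc2Δpodocyte and at 3.33, 3.37, 3.27 and 3.44 in untreated Tsc2flox/flox podocytes. The values were well apart, with a log2 fold change of -1.70 (SE 0.17, adjusted p = 8.24e-05), and of -0.99 with rapamycin (adjusted p = 0.00522). Tnip1, a partner of A20, rose by 0.85 and 0.80 (adjusted p = 9.55e-05 and 0.000687). Rela, at 0.36 (adjusted p = 0.0397), and Nfkbib, at 0.18 (adjusted p = 0.0697), were not called.

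Of 11 genes that act in cytokine receptor shedding or cytokine mRNA turnover, 1 fell without rapamycin and 0 were called with it. This was Zfp36l1, which promotes decay of AU-rich mRNAs, at -0.70 (adjusted p = 0.0361), and at -0.42 (adjusted p = 0.227) with rapamycin. Adam10, a protease that sheds IL6RA and CX3CL1, was at 0.25 (adjusted p = 0.135), and Rhbdf1 and Rc3h1 were at -0.32 and -0.28 (adjusted p = 0.0536 and 0.0890).

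**Figure D4:**
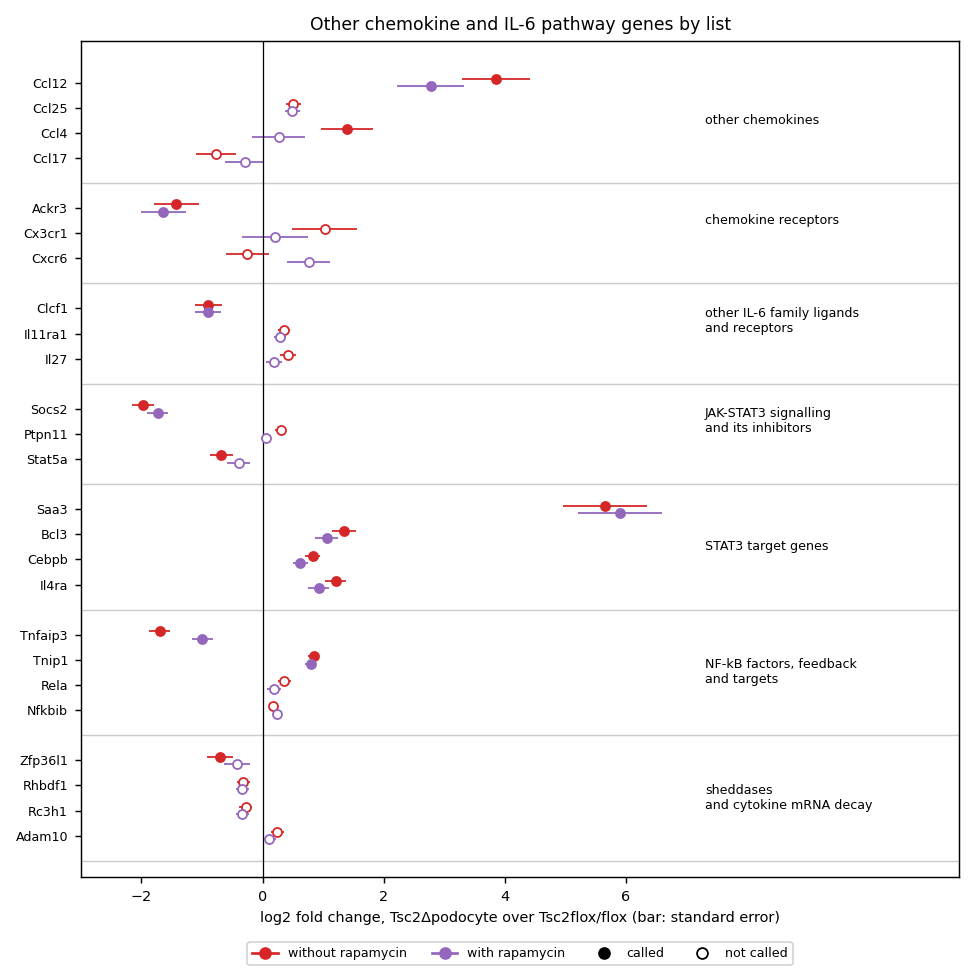
Log2 fold change of Tsc2Δpodocyte over Tsc2flox/flox podocytes (horizontal axis) for up to 4 genes of each list with the smallest p between untreated genotypes, without (red) and with (purple) rapamycin. Genes that are not reported here are left out of the plot. Bars are standard errors from limma and filled points are called; for Ccl12 and Saa3 the signal of a group was not above background on some or all arrays, so that the plotted size is not established.

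Some markers of other glomerular cell types differed between the genotypes as well. The mean normalized log2 signal of 12 mesangial and smooth muscle markers was 2.00 to 2.35 in untreated Tsc2Δpodocyte and 1.34 to 1.83 in untreated Tsc2flox/flox samples. With rapamycin it was 1.76 to 2.16 and 1.60 to 2.05. Of these markers 5 were called higher and 0 lower without rapamycin, and 1 higher and 1 lower with it. Their summed linear signal was 714 to 981 against 635 to 802, and 664 to 758 against 587 to 711. For 10 parietal epithelial markers the mean was 0.99 to 2.03 against 1.97 to 2.78 without rapamycin, and 1.58 to 3.26 against 2.26 to 3.43 with it. In each comparison 0 of these markers were called higher and 2 lower. Their summed linear signal was 37.1 to 132 against 81.8 to 182, and 91.1 to 325 against 103 to 382. These counts, and those of the other marker lists, stand beside 10.0% of all genes called between genotypes without rapamycin and 5.58% with it. The part of these cells in the differences of Ccl2, Ccl7, Il6ra and Cxcl12 was not tested.

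As a description of which genes had a like pattern, the normalized log2 signals of Ccl2, Il6 and Socs3 were set against those of 14080 genes over the 16 arrays by Pearson's r. The arrays share groups and slides, so the r of the deviations from group means is given beside it. Closest to Ccl2 were Slc44a1 (r = 0.914), Tnfrsf1b (0.903), Coro1a (0.896), Arrdc4 (0.896) and Aldh1l1 (0.895), with an r of the deviations between 0.806 and 0.851. Tnfrsf1b is a receptor of tumour necrosis factor and Coro1a an actin-binding protein of leukocytes. Closest to Il6 were Bcas1 (r = 0.907, deviations 0.905), Col6a3 (0.805, 0.870), Cbfa2t3 (0.804, 0.873), Rftn1 (0.788, 0.762) and Ddr2 (0.776, 0.777), of which Col6a3 encodes a collagen chain and Ddr2 a collagen receptor. Closest to Socs3 were Ier3ip1 (r = 0.855, deviations 0.809), Gm13547 (0.854, 0.872), Hipk2 (0.852, 0.875), Slc25a11 (0.838, 0.822) and Apba3 (0.837, 0.775).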

How the data were processed

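Total RNA of 16 samples (4 groups of 4) was measured on one-colour (Cy3) Agilent mouse arrays. The scanner files hold the authors' output of Agilent Feature Extraction 10.7.3.1, a background-subtracted intensity per spot on a linear scale. The deposited table holds log2 values, by the values themselves shifted to the 75th percentile of each array and centred per probe, and it was used as an alternative. The authors analysed the signals in GeneSpring at a 1.5-fold threshold and a Benjamini-Hochberg adjusted p under 0.05, with no test named for the arrays.

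Here the log2 intensity minus the log2 of the 75th percentile of each array was used, without control spots and outlier-marked spots, with repeated spots averaged. Of 56605 probes, 32994 were matched to 22911 genes by accession through the RefSeq table of GRCm38.p6, and 27579 probes (14094 genes) entered the tests because a whole group of 4 arrays measured them well above background. No spot was saturated, and the number of arrays limits the precision. Group means over all 16 arrays were fitted in limma 3.58.1 (R 4.3.3), with Benjamini-Hochberg adjustment over all tested probes within each comparison, after a test on simulated data. Single values were compared by 2-sided exact permutation tests.

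The members and gene lists were chosen with earlier results of these data known. Named were all members, up to 4 genes of each list with the smallest p between untreated genotypes (besides those that make up a count of calls, named after their values were seen), and the 5 genes most correlated with Ccl2, Il6 and Socs3. Some genes of the lists are not reported here. Other settings were the replicate number as a block, normexp background correction (offset 50), quantile normalization, a stricter and no filter on dim probes, the values of the deposited table, a fit to the compared arrays alone, the methods' t-test (Benjamini-Hochberg adjusted), a trended robust prior in limma, the p threshold alone, a gene called by any of its probes, and each array left out. Leaving out both untreated arrays numbered 3 was added after the data were seen. The methods' t-test is that of the general statistics section.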

Additional observations from a re-analysis of the deposited data

Results flagged for a closer look

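Of 48 sets of 4 arrays (12 probes in 4 groups), 2 held an array far from the others, and chance alone marks about 1 in 20 such sets. For Cxcl12 on the probe A_51_P172502, Tsc2Δpodocyte replicate 3, at 3.59, was above the other Tsc2Δpodocyte samples, whose values lay between 2.00 and 2.12, with a gap to the nearest of 0.929 of the group's range. The mean of 12 endothelial markers on that array was 0.58, against -1.82 to -1.16 in the rest of the group, and its part in the Cxcl12 value was not tested. For Cx3cl1, rapamycin-treated Tsc2Δpodocyte replicate 2, at 1.04, was above the other 3, at 0.69 to 0.74, with a gap of 0.847 of the range.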

How the results depend on the processing

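The counts of called members held within 1.5 times of those reported under the alternatives for the untreated genotypes (2 to 4 genes). With rapamycin the 2 genes became 1 with all probes kept, 1 with only the 8 arrays compared and 1 in the methods' t-test after adjustment, Cxcl12 being lost, and ranged from 1 to 4 with 1 array left out (4 without rapamycin-treated Tsc2flox/flox replicate 2). The cause was not tested. With the replicate number as a block (replicate block), 3, 2, 0, 0 and 0 member genes were called in the 5 comparisons, as without it. Between the rapamycin-treated genotypes, the samples numbered 2, 3 and 4 deviated together (r of their deviations 0.464, 0.175 and 0.289) but those numbered 1 did not (-0.0226), and 3 of 8 samples correlated best with their own number. In the other 3 pairs of groups r lay between -0.304 and 0.23, and 0 to 2 of 8 samples did so. The numbers are not taken as pairs, since r was not above 0.1 for every pair in any of these comparisons. The methods' t-test, Benjamini-Hochberg adjusted, called 3 and 1 member genes between genotypes without and with rapamycin, where Cxcl12 had an adjusted p of 0.141, and 0 between treatments in either genotype. For the interaction, no value came from the methods' t-test or from only the arrays compared.

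Under normexp background correction, without both untreated samples numbered 3 or without 1 other array, some differences that were never called changed sign. Under normexp the interaction became 0.0137 for Ccl7, -0.0743 for Cxcl1 and 0.0418 for Socs3 on the log2 scale, the difference between treatments became -0.1086 for Il6ra in Tsc2Δpodocyte and 0.0052 for Il6st in Tsc2flox/flox podocytes, and the genotype difference of Il6st with rapamycin became -0.0944. Without both untreated samples numbered 3, the genotype difference of Il6 became -0.237 and -0.3176 on its probes, its difference between treatments in Tsc2flox/flox podocytes -0.0827 and -0.0837, that of Il6ra in Tsc2Δpodocyte podocytes -0.0284 and the interaction of Cx3cl1 0.0063. With 1 array left out, the interaction ranged from -0.4283 to 0.0937 for Ccl2, -0.2453 to 0.1466 for Ccl7, -0.2531 to 0.2806 for Cxcl1, -0.2717 to 0.3348 for the dimmer Cxcl12 probe, -0.2024 to 0.0547 for Cx3cl1 and -0.2442 to 0.1304 for Socs3. The difference between treatments in Tsc2Δpodocyte podocytes ranged from -0.3435 to 0.0421 for Ccl2, -0.1111 to 0.1808 for Il6ra and -0.2717 to 0.1029 for Socs3. In Tsc2flox/flox podocytes it ranged from -0.2103 to 0.2655 for Ccl2, -0.0827 to 0.9675 and -0.0837 to 1.0276 for the probes of Il6, -0.1019 to 0.0923 and -0.1842 to 0.0501 for those of Il6st and -0.0911 to 0.0489 for Socs3. Between genotypes, the second Il6 probe ranged from -0.0695 to 1.0417 without rapamycin and the second Il6st probe from -0.0553 to 0.1876 with it. The causes of these changes were not tested.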
